A study of Mus musculus with 23 samples.

Results

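A set of 8 genes that restrain the cell cycle or mark resting cells were followed across single cells of mouse bone marrow. They are Cdkn1a, Cdkn1b, Cdkn1c, Txnip, Foxo1, Foxo3, Ccng2 and Btg2, chosen by symbol. All 8 were found among the 23536 gene rows of the table of all cells. Cells were profiled with CEL-seq, a single-cell method that counts 3′ tags of each mRNA after linear amplification. The samples form 2 groups. Sorted haematopoietic stem cells (HSC) were single cells gated as Lineage-, Kit+, Sca1+, CD150+ and CD48-, with 5 libraries in the labels. Micro-dissected bone marrow cells, with no gate named, made up 18 libraries. The labels give neither group a genotype, strain, age, treatment or number of animals. Replicates here are libraries. Since libraries may share animals, each p-value covers the variation from library to library and no more, and part of that may be technical. The sorted libraries used in the tests carry titles with a common stem and may be plates of 1 sort.

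Cells with at least 1000 transcripts were kept, 245 of 369 sorted and 707 of 1546 dissected, from 4 sorted and 17 dissected libraries. Kept cells of a library summed to 3119 to 238770 transcripts among the sorted and 9032 to 313488 among the dissected. Sorted HSC replicate 1 held 2 kept cells and entered no test in its main form, so sorted HSC replicates 3, 4 and 5 carry the results. No kept cell had a profile identical to another, and no column name was used by 2 libraries. Dissected cells were clustered without the 8 genes and without any gene of the pathway lists used below, and clusters were named by marker genes. This gave 232 erythroblast-like cells, nucleated red cell precursors that fill with haemoglobin, divided into 38 early and 194 late by whether Car1 exceeded Slc4a1. It gave 262 cells of the neutrophil line, of which 68 were promyelocyte-like, 138 myelocyte-like and 56 mature neutrophil-like. Markers bore out the sort: a list of 14 HSC and multipotent progenitor genes summed to 6079 to 7017 CPM (transcripts per 1000000 transcripts of the library's cells) in the sorted libraries and to 0 to 424 CPM in the neutrophil-line sums. A further 66 cells formed a cluster that no marker list named, and micro-dissected replicates 1 to 5 held all but 1 of these cells. Sorting and dissection differ between the stem cells and every other class, so the cell class and the way of isolation cannot be told apart in any comparison with sorted HSC.

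Adult stem cells of the blood spend most of their time outside the cell cycle, in G0, while erythroid and granulocytic precursors divide rapidly before a final arrest. The Cip/Kip proteins p21 (Cdkn1a), p27 (Cdkn1b) and p57 (Cdkn1c) bind and inhibit cyclin-dependent kinases, and p57 is known for its part in keeping HSC quiescent. The forkhead factors Foxo1 and Foxo3 are held out of the nucleus by growth factor signalling through Akt and, when active, raise genes of arrest and of defence against oxidants, among them Cdkn1b, Ccng2 and Txnip. Txnip, an arrestin-family protein, binds thioredoxin and limits glucose uptake. Ccng2 encodes cyclin G2, an unusual cyclin that is high in arrested cells. Btg2 is an antiproliferative protein of the BTG/TOB family, a target of p53 and an immediate-early gene that answers stimuli within minutes.

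The promoters of Txnip and Btg2, the 2 members that passed the filter on low counts in both main comparisons, are shown because their transcripts differed in opposite directions. Each is the 250 bases before the RefSeq start (GRCm38.p6), 5′ to 3′ on the strand of the gene, with motif matches in capitals. By GENCODE annotation of GRCm38, Txnip lies on chr3:96557957-96561883 on the plus strand, and its window is chr3:96557707-96557956. Btg2 lies on chr1:134075170-134079120 on the minus strand, and its window is chr1:134079156-134079405.
Txnip: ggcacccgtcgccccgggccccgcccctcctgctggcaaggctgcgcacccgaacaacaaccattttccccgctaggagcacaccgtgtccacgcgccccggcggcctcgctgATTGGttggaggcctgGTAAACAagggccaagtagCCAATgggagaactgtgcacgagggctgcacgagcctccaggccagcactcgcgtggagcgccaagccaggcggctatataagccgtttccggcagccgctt
Btg2: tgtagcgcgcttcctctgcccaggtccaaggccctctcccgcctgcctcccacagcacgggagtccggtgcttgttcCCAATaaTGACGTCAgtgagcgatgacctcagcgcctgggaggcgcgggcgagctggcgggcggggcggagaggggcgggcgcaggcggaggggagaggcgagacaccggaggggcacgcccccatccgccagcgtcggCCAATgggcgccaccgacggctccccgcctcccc
Both strands were searched for a forkhead motif with the letters TGTTTAC, for the cAMP response element with the letters TGACGTCA, for the CCAAT box, for an E-box with the letters CACGTG and for a TATA box with the letters TATAAA. The Txnip window held the forkhead letters, on the reverse strand, 121 to 115 bases before the start. CCAAT matches lay on either side of them, at 137 to 133 and at 102 to 98 bases, and none of these matches overlapped. The Btg2 window held the cAMP response element 166 to 159 bases before the start, and CCAAT at 173 to 169 and at 34 to 30 bases. Of 32851 RefSeq promoters of this length, 3.17% held the forkhead letters, 1.55% the cAMP response element, 33.8% CCAAT, 6.02% the E-box and 12.4% the TATA box. These are matches of letters only. Of the other genes with an entry, Foxo1 and Cdkn1b held CCAAT, while Ccng2, Foxo3 and both Cdkn1a entries held none of the 5 motifs. Cdkn1c was not matched.

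The first question was how the level of each gene in sorted HSC compared with erythroid and granulocytic cells, the latter taken as the neutrophil line. The 47 eosinophil-like cells, also granulocytic, had 3 libraries with at least 5 cells and were not tested against HSC. Pooled, they held 205 CPM of Txnip, 170 CPM of Ccng2 and 81.8 CPM of Btg2. Txnip, Cdkn1c and Foxo1 were higher in HSC than in erythroblast-like cells and in the neutrophil line, Btg2 was lower than in both, and Ccng2 was lower than in the neutrophil line. Cdkn1b, Cdkn1a and Foxo3 did not pass the test in either comparison. Transcripts were summed per library and class where a library held at least 5 cells of the class, and tested with edgeR's quasi-likelihood test over all genes with Benjamini-Hochberg adjustment at 0.05. A filter on low counts left Txnip and Btg2 of the 8 against erythroblast-like cells, and Txnip, Btg2 and Ccng2 against the neutrophil line. Of the 2 against erythroblast-like cells, 1 was called higher in HSC and 1 lower, where 28.4% of the 2000 genes tested were higher and 24.4% lower. Of the 3 against the neutrophil line, 1 was higher and 2 lower, where 24.4% of 2274 genes were higher and 25.2% lower. Calls in either direction were thus common among all genes in both comparisons, and a call of a member is to be read beside its values.

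**Figure D1:**
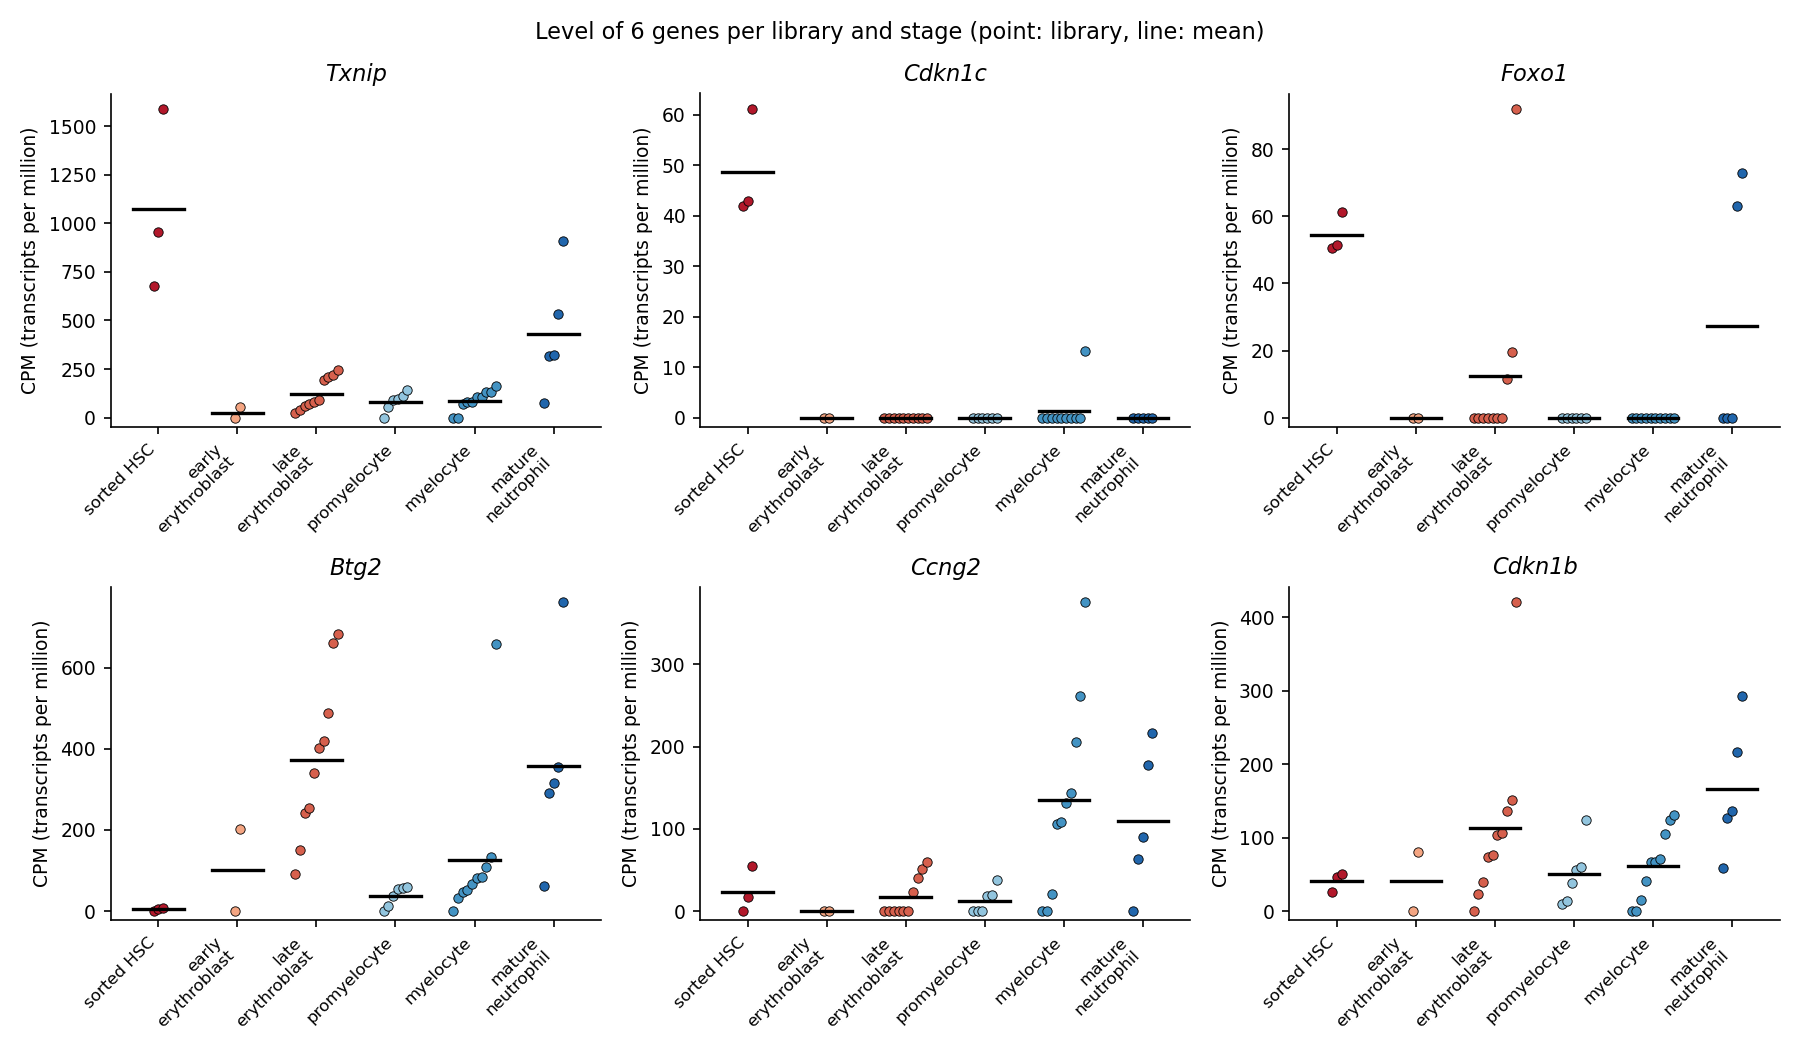
Level of 6 of the 8 genes in CPM (vertical axis, linear, its own scale in each panel) in sorted HSC and 5 stages of dissected cells (horizontal axis). A point is a library with at least 5 cells of the stage and a line is the mean over libraries. The 3 sorted libraries lie between 678 and 1589 CPM for Txnip and at or below 8.56 CPM for Btg2.

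Txnip, the thioredoxin-binding arrestin, was the member with the clearest HSC signal. In sorted HSC replicates 3, 4 and 5 it stood at 1589, 678 and 956 CPM (mean 1074 ± 467, SD, n = 3). In erythroblast-like cells of 11 libraries it ranged from 18.04 through a median of 76.0 to 247 CPM, and in the neutrophil line of 12 libraries from 0 through 109 to 263 CPM. Every sorted library lay above every library of both classes. The log2 fold change was 3.92 ± 0.36 (SE) against erythroblast-like cells (edgeR adjusted p = 2.2e-11) and 3.07 ± 0.34 against the neutrophil line (adjusted p = 1.4e-09). Without the dissected libraries that held cells of the unnamed cluster these were 3.79 and 2.98.

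Txnip was also higher in HSC than in each stage of the erythroid and neutrophil lines. Late erythroblast-like cells held 25.7 to 247 CPM (median 86.0, n = 10), promyelocyte-like cells 0 to 144 CPM (median 91.6, n = 6) and myelocyte-like cells 0 to 164 CPM (median 93.8, n = 10). These stages overlapped one another, and all of their libraries lay below the lowest sorted library. HSC exceeded them by 3.96 ± 0.35, 3.76 ± 0.36 and 3.61 ± 0.33 on the log2 scale (edgeR adjusted p = 3.8e-12, 5.1e-11 and 1.8e-12). Genes called higher in HSC made up 38.9%, 21.9% and 33.1% of those tested in these comparisons, and genes called lower 34%, 22.8% and 35.8%. Among cells with at least 2000 transcripts the difference from late erythroblast-like cells was 2.67 ± 0.69 (adjusted p = 0.0050). Early erythroblast-like cells were summed in 2 libraries only, at 0 and 52.3 CPM, and HSC were higher by 5.02 ± 0.70 (edgeR adjusted p = 1.1e-10, background 20.2% higher and 11.2% lower). That value rests on few transcripts. It was 10.27 without micro-dissected replicate 11, a fitted value against a lone library at 0 and no bound, 4.05 among cells with at least 2000 transcripts, and 4.03 ± 0.46 with 8 libraries when early cells were taken as the cluster led by Car1 and Minpp1.

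Among the stages of the erythroid and neutrophil lines, mature neutrophil-like cells came closest to HSC. Their 5 libraries held 73.0, 316, 325, 534 and 907 CPM of Txnip (mean 431 ± 312, SD), and 1 of the 5 lay within the range of the sorted libraries. Their pooled level was 489 CPM. Outside these lines, 9 plasma cell-like cells held 534 CPM pooled, from 12 transcripts. Monocyte and dendritic-like cells ranged from 37.6 to 686 CPM over 4 libraries. Neither class was tested against HSC. HSC were still higher by 2.18 ± 0.47 on the log2 scale (edgeR adjusted p = 1.4e-04), in a comparison where 44.9% of 323 genes tested were higher in HSC and 38.4% lower. The difference fell to 0.99 ± 0.47 (adjusted p = 0.041) when each cell took the class of the marker list with most of its transcripts, and it was 1.67 without micro-dissected replicate 16. HSC markers summed to 108 to 438 CPM in these neutrophil libraries, with 8 of the 14 at 0. Whether mature neutrophil-like cells exceed myelocyte-like cells in Txnip was not tested on their own; joined with myelocyte-like cells and compared with promyelocyte-like cells of the same 6 libraries, Txnip gave 1.02 ± 0.44 (edgeR with no filter, adjusted p = 0.20).

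**Figure D2:**
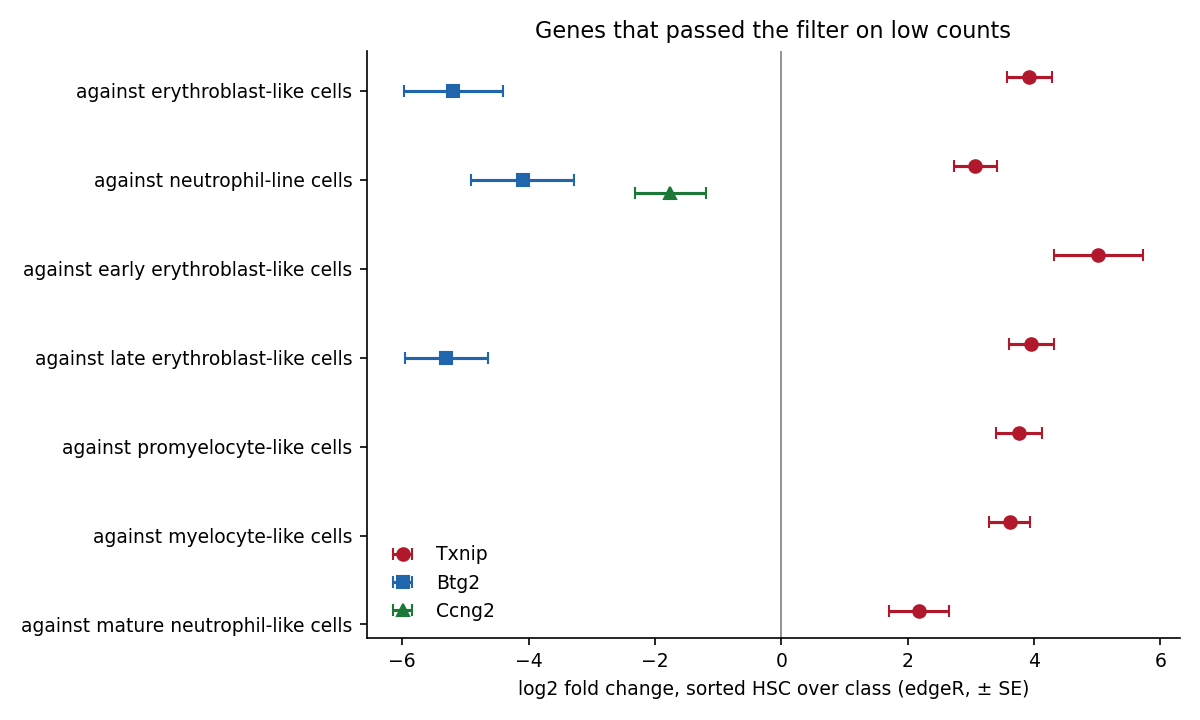
Log2 fold change of sorted HSC over a class (horizontal axis, edgeR, bars ± SE) for each class compared (vertical axis). Points are the members that passed the filter on low counts there, by colour and shape. Txnip is above 0 in all 7 comparisons, from 2.18 to 5.02, Btg2 below 0 in 3, and Ccng2 below 0 in 1. The comparisons share the same sorted libraries, and the erythroblast-like and neutrophil-line classes contain the stages.

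Per cell, Txnip was detected in 195 of 245 sorted HSC, which is 79.6% (exact 95% binomial interval 74.0 to 84.5%), with a median depth of 1926 transcripts. The share was 21.1% of erythroblast-like cells (median depth 1753) and 34.4% of neutrophil-line cells (median depth 2823). With each cell thinned to 1000 tags the shares were 66.5%, 10.3% and 14.9%, leaving out 0, 18 and 7 shallower cells. The share was thus highest in HSC at equal depth as well. These intervals cover counting error only.

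The sorted libraries differed from one another. Txnip was found in 96.7% of the 91 cells of sorted HSC replicate 3, in 58.3% of the 72 cells of replicate 4 and in 78.8% of the 80 cells of replicate 5. At 5 or more tags there were 34, 2 and 9 cells in that order, and the highest cell held 13 tags. Replicate 3 was also the deepest and replicate 4 the shallowest, with median transcripts of 2324, 1476 and 1869 in the order of replicates 3, 4 and 5, and the part of depth in these shares was not tested. The CPM, which is scaled by depth, ran in that order too.

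**Figure D3:**
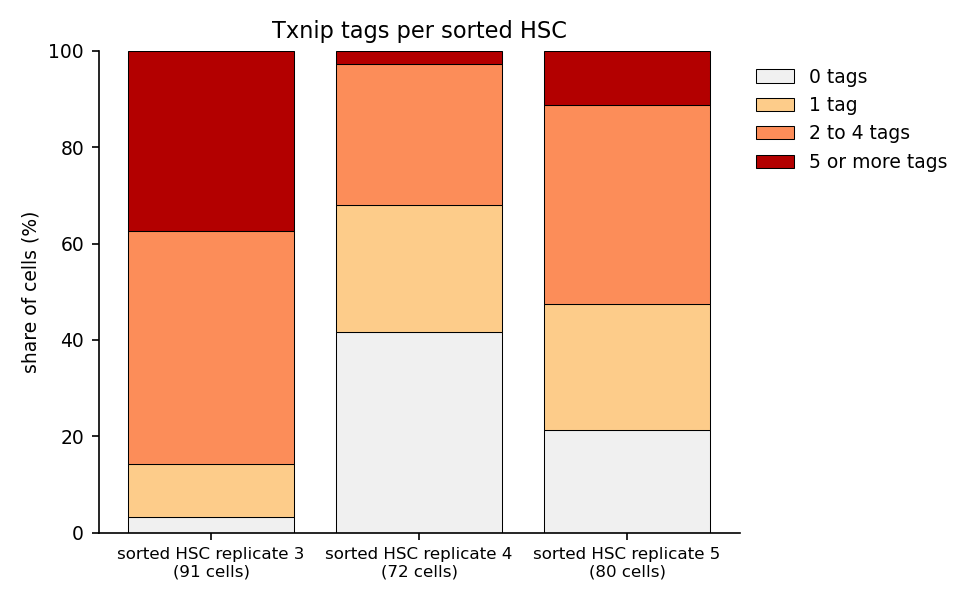
Share of sorted HSC (vertical axis, percent) with 0, 1, 2 to 4 and 5 or more Txnip tags in each of the 3 libraries (horizontal axis). Cells without a tag number 3 of 91 in replicate 3, 30 of 72 in replicate 4 and 17 of 80 in replicate 5.

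Cdkn1c, encoding p57 (chr7:143458339-143461050), was rare, and of its transcripts in HSC, erythroblast-like and neutrophil-line cells nearly all were in HSC. The sorted libraries held 42.0, 42.8 and 61.1 CPM, from 26 transcripts in all. Erythroblast-like cells held 1 transcript and neutrophil-line cells 1, and 10 of 11 and 11 of 12 libraries were at 0. The groups did not overlap. The gene did not pass the filter on low counts. In the fit with no filter it was called higher in HSC against both classes (edgeR adjusted p = 6.3e-06 and 2.1e-06), where 26.5% and 18.1% of all genes were called higher, 8.93% and 8.74% lower, and all genes had a median log2 fold change of 0.73 and 0.37. As a ratio of pooled counts, HSC exceeded erythroblast-like cells 32.7 times (counting interval 5.38 to 1342) and the neutrophil line 45.8 times (7.53 to 1879). These intervals are wide because the denominator is 1 transcript.

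Outside these classes, 18 Cdkn1c transcripts came from a single macrophage-like cell of micro-dissected replicate 15. That cell held 10690 transcripts and 9 of 12 macrophage markers (130 transcripts), among them C1qb, C1qc and Vcam1, and none of the 14 HSC markers. It also held 8 of 13 monocyte and dendritic markers (95 transcripts), 5 of 11 myelocyte markers (22) and 7 of 20 erythroblast markers (11). No doublet caller was run, and whether its transcripts come from more than 1 cell was not tested. A further 5 transcripts lay in 4 cells of the unnamed cluster in micro-dissected replicate 3. Another 1 lay in an eosinophil-like cell of micro-dissected replicate 13, worth 80.5 CPM in the sum of that library and class.

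Foxo1, the forkhead factor (chr3:52268336-52353221), was likewise higher in HSC than in erythroblast-like cells and the neutrophil line. Sorted libraries held 50.4, 51.3 and 61.2 CPM, a narrow range. Erythroblast-like cells held 5 transcripts, with 7 of 11 libraries at 0 and a highest value of 44.8 CPM, and the neutrophil line 2, with 10 of 12 libraries at 0 and a highest value of 38.6 CPM. Neither class as a whole overlapped the sorted libraries, though each of these highest values is the worth of 1 transcript. With no filter Foxo1 was called higher in HSC against both (edgeR adjusted p = 6.0e-04 and 4.2e-06), with the same backgrounds as for Cdkn1c. The pooled ratio was 7.30 over erythroblast-like cells (counting interval 2.80 to 24.2) and 25.6 over the neutrophil line (6.47 to 221). Against mature neutrophil-like cells alone it did not pass (edgeR with no filter, adjusted p = 0.21). Of their 5 libraries 3 were at 0 and 2 held 1 transcript each, worth 63.1 and 73.0 CPM. Late erythroblast-like cells also overlapped HSC: 1 of 10 libraries, micro-dissected replicate 12, lay above the sorted range, at 92 CPM from 1 transcript. Outside these lines, Foxo1 was seen in 7 of 55 monocyte and dendritic-like cells (12.7%), beside 25 of 245 sorted HSC (10.2%). Monocyte and dendritic-like cells ranged from 0 to 139 CPM of Foxo1 over 4 libraries and were not tested against HSC.

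Stage by stage, the fits with no filter held all 8 members. Txnip, Cdkn1c and Foxo1 were called higher and Btg2 lower against late erythroblast-like cells (36.7% of all genes higher, 7.88% lower) and against promyelocyte-like cells (13.3% and 5.14%). The Btg2 call against promyelocyte-like cells (-2.93, adjusted p = 0.010) was lost with DESeq2 (-3.25, adjusted p = 0.062). The same 4 and Ccng2, which was lower, were called against myelocyte-like cells (24.6% and 7.4%). Against mature neutrophil-like cells Txnip and Cdkn1c were called higher and Btg2 lower (21% and 4.13%). Txnip stood at 1.82 ± 0.44 in that fit, beside a median of 1.78 over all genes, so it did not stand apart there. After the filter on low counts it was 2.18, beside a median of 0.07. Cdkn1c was at 0 in all 5 libraries of mature neutrophil-like cells. For Cdkn1c the adjusted p was 0.020 by edgeR, 0.032 by DESeq2 and 0.083 when scaled by library totals alone, in the same direction each time. Against early erythroblast-like cells Txnip alone was called (5.31% and 2.41%), with 2 libraries, and Btg2, at -3.50 with adjusted p = 0.072, was called lower when scaled by library totals alone (-3.87, adjusted p = 0.043). Over all genes the median log2 fold change lay between 0.73 and 1.78 in these 5 fits, so that a member near that value does not stand apart from the rest.

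Foxo3, the other forkhead factor among the members (chr10:42181841-42276755), was too rare to compare: 2 transcripts in sorted HSC, 2 in erythroblast-like cells and 0 in the neutrophil line. A count of 0 there allows up to 3.08 CPM. Cdkn1a, encoding p21 (chr17:29090976-29100727), was as rare, with 2 transcripts in sorted HSC, 3 in erythroblast-like cells and 5 in the neutrophil line. Neither passed the test in any comparison of HSC with a class (edgeR with no filter, adjusted p from 0.15 to 0.92). A difference in these 2 genes was not detectable at this depth.

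Btg2, the antiproliferative immediate-early gene, ran opposite to Txnip. Sorted HSC held 2 Btg2 transcripts among 245 cells, at 4.196, 8.56 and 0 CPM in replicates 3, 4 and 5. Erythroblast-like cells held 44.8 to 434 CPM (median 232, n = 11), all above the sorted libraries, and the neutrophil line 0 to 430 CPM (median 80.8, n = 12), with 11 of 12 libraries above them. HSC were lower by edgeR, with a log2 fold change of -5.19 ± 0.78 (adjusted p = 1.9e-06) and -4.10 ± 0.82 (adjusted p = 5.1e-05). As pooled counts, erythroblast-like cells exceeded HSC 65.1 times (counting interval 17.7 to 542) and neutrophil-line cells 21.0 times (5.61 to 177). A Btg2 transcript was seen in 44.8% of erythroblast-like, 21.0% of neutrophil-line and 0.816% of sorted cells.

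Within the neutrophil line, Btg2 was higher in the later cells. Late erythroblast-like cells held 91.97 to 682 CPM (mean 373 ± 199, SD, n = 10) and lay above all sorted libraries, with HSC lower by -5.30 ± 0.66 (edgeR adjusted p = 6.3e-09, background 34%). Promyelocyte-like cells held 0 to 59.4 CPM (mean 37.3 ± 25.3, n = 6) and mature neutrophil-like cells 63.1 to 761 CPM (mean 358 ± 253, n = 5). Those 2 stages did not overlap, but only by 59.4 against 63.1 CPM, and the latter is the worth of 1 transcript in its library. Myelocyte-like cells, at 0 to 658 CPM (median 74.5, n = 10), overlapped both. Where myelocyte-like and mature neutrophil-like cells were joined and compared with promyelocyte-like cells of the same 6 libraries, with the library as a block, Btg2 was higher by 1.71 ± 0.56 (edgeR with no filter, adjusted p = 0.037). Late against early erythroblast-like cells could be compared in 2 libraries only, and none of the 4 members in that fit passed (Btg2 2.04 ± 0.97, edgeR with no filter, adjusted p = 0.90, where 0.0859% of 8147 genes were higher and 0% lower).

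Other immediate-early genes were read beside Btg2. A list of 18 of them summed to 322 to 538 CPM in sorted HSC, with 5 genes at 0, to 314 to 1688 CPM in erythroblast-like cells, and to 3271 to 6960 CPM in mature neutrophil-like cells, with 3 at 0. Of the 5 that passed the filter against the neutrophil line, 4 were lower in HSC: Fos, Zfp36 (-2.61 ± 0.72, edgeR adjusted p = 0.0044), Klf6 and Junb. Of all genes tested 25.2% were lower there. Against erythroblast-like cells Ppp1r15a was lower (-3.44 ± 0.49, adjusted p = 2.0e-07) and Ier2 higher (2.88 ± 0.64, adjusted p = 2.6e-04). Fos and Klf6 are named here after their values were seen. The part of these genes' level in the Btg2 result was not tested.

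Ccng2, encoding cyclin G2 (chr5:93267257-93276231), was lower in HSC than in the neutrophil line. Sorted HSC held 54.6, 0 and 16.7 CPM in replicates 3, 4 and 5, from 17 transcripts in all kept sorted cells. The neutrophil line held 0 to 173 CPM (mean 90.9 ± 56.8, SD, n = 12), with 9 of 12 libraries above the highest sorted one, and erythroblast-like cells 0 to 54.2 CPM. HSC were lower than the neutrophil line by -1.76 ± 0.57 (edgeR adjusted p = 0.0090). The sorted libraries decide the size: without replicate 3 it was -3.22 (adjusted p = 0.0013), and without replicate 5 it was -1.47 with adjusted p = 0.059. Against erythroblast-like cells Ccng2 did not pass (0.74 ± 0.62, edgeR with no filter, adjusted p = 0.35), and the value turned to -0.51 without sorted HSC replicate 3.

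Ccng2 was higher in the neutrophil line after the promyelocyte-like stage. Promyelocyte-like cells held 0 to 37.8 CPM (mean 12.6 ± 15.4, n = 6), myelocyte-like cells 0 to 375 CPM (mean 135 ± 120, n = 10) and mature neutrophil-like cells 0 to 217 CPM (mean 110 ± 87.6, n = 5). All 3 ranges reach 0, so the stages overlap. Within the same 6 libraries, myelocyte-like and mature cells exceeded promyelocyte-like cells by 3.45 ± 0.60 (edgeR with no filter and the library as a block, adjusted p = 6.6e-07). Of 7 members in that fit, Ccng2 and Btg2 were called higher and 0 lower, where 2.8% of 11293 genes were higher and 3.85% lower, and the median of all genes was -0.30. By stage, Ccng2 was lower in HSC than in myelocyte-like cells (-2.44 ± 0.49, edgeR with no filter, adjusted p = 1.0e-05). It did not pass against mature neutrophil-like cells (-1.22 ± 0.74, same fit, adjusted p = 0.22). Nor did it pass against promyelocyte-like cells, where the sign was positive (1.01 ± 0.78, same fit, adjusted p = 0.38). A Ccng2 transcript was seen in 24.0% of neutrophil-line, 3.88% of erythroblast-like and 6.94% of sorted cells.

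Cdkn1b, encoding p27 (chr6:134920401-134925513), was found in HSC and in both lines, and no difference passed the test. Sorted libraries held 46.2, 25.7 and 50.0 CPM (mean 40.6 ± 13.1, SD, n = 3), erythroblast-like cells 0 to 232 CPM (mean 76.1 ± 62.0, n = 11) and the neutrophil line 0 to 232 CPM (mean 66.4 ± 62.8, n = 12). The ranges overlapped in both comparisons. With no filter it did not pass against erythroblast-like cells (-0.80 ± 0.51, edgeR adjusted p = 0.21) or the neutrophil line (-0.93 ± 0.48, adjusted p = 0.14). Mature neutrophil-like cells held 59.3 to 292 CPM, all 5 libraries above the sorted ones, yet HSC against them did not pass either (-1.24 ± 0.64, adjusted p = 0.14). When scaled by library totals alone it was called lower in HSC than in mature neutrophil-like (-1.85, adjusted p = 0.040) and late erythroblast-like cells (-1.14, adjusted p = 0.049). As pooled counts, the ratio of erythroblast-like cells to HSC was 1.55 (counting interval 0.921 to 2.69). That interval leaves out the spread between libraries and so does not bound the ratio. In the unnamed cluster it stood at 349 CPM from 60 transcripts, and ranged from 71.9 to 591 CPM over its 4 libraries with at least 5 cells.

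The second question was how these genes relate to cycling transcripts within HSC. A list of 49 cycling genes of DNA replication and mitosis was summed per cell after thinning to 1000 tags. Of 243 cells in the 3 sorted libraries, 50 held no tag of the list and 193 held at least 1. Sorted HSC carried less of the list than the 2 lines, 3240 to 4937 CPM against 17004 to 25581 CPM in erythroblast-like and 6249 to 15394 CPM in neutrophil-line libraries. The neutrophil line mixes stages, and against its mature neutrophil-like cells 0 of the 49 genes passed the filter. Of the listed genes that passed the filter, 41 of 45 were lower in HSC against erythroblast-like cells, with a median log2 fold change of -2.30 beside 0.09 over all genes tested. Against the neutrophil line 24 of 37 were lower and 1 higher, with a median of -1.99 beside 0.03. Of all genes tested 24.4% and 25.2% were lower in HSC in these 2 comparisons.

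Txnip was lower in the HSC that held cycling tags, in all 3 libraries. In cells with no cycling tag it stood at 2216, 1055 and 1623 CPM in replicates 3, 4 and 5, and in cells with at least 1 at 1463, 545 and 876 CPM. The cells numbered 17, 21 and 12 without a tag and 74, 51 and 68 with one. The log2 difference was -0.74 ± 0.18 (edgeR with the library as a block, adjusted p = 0.015), and Txnip was the only member that passed the filter there. It was 1 of 4 genes called lower, beside Zfp467, Oaz2 and Ifitm1, of 1040 tested (0.385%). Another 13 genes (1.25%) were higher, of which 6 belong to the cycling list that made the split (Mcm2, Mcm3, Mcm5, Mcm6, Mcm7 and Pcna) and are no result of it. These other genes are named after their values were seen.

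The call was not stable. DESeq2 gave -0.78 with adjusted p = 0.26, the fit without the library block -0.74 with adjusted p = 0.999, and the fit with no filter on low counts -0.39 with adjusted p = 0.88. Leaving out replicate 3, 4 or 5 gave -0.85, -0.58 and -0.68, with adjusted p = 0.38, 0.31 and 0.12. With at least 2 cycling tags against none the difference was -0.999 (edgeR adjusted p = 7.4e-05). The sign was negative in each of these fits.

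By the number of cycling tags, Txnip was lowest in each library in cells with 4 or more, and the steps before that differed. In replicate 3 it stood at 2216, 2372, 1702 and 741 CPM in cells with 0, 1, 2 to 3 and 4 or more tags, so that the fall came after 1 tag. In replicate 4 it stood at 1055, 792, 591 and 408 CPM, lower at each step. In replicate 5 it stood at 1623, 1233, 1252 and 471 CPM, with falls at the first and the last step. Pooled over the 3 libraries, which differ in level and in their share of each bin, it stood at 1693 CPM in the 50 cells with no tag, 1676 CPM in the 54 cells with 1, 1391 CPM in the 68 cells with 2 to 3 and 565 CPM in the 71 cells with 4 or more. Cells with 4 or more tags were also deeper, with a median of 2673 transcripts against 1563 in cells with none. At an equal 1000 tags per cell the share of cells with Txnip was 82.0%, 74.1%, 73.5% and 42.3% in the same order. Over the cells of a library, Spearman's rho between thinned Txnip tags and cycling tags was -0.42 (91 cells), -0.28 (72 cells) and -0.38 (80 cells), a description only, since both counts come from the same 1000 tags of a cell.

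**Figure D4:**
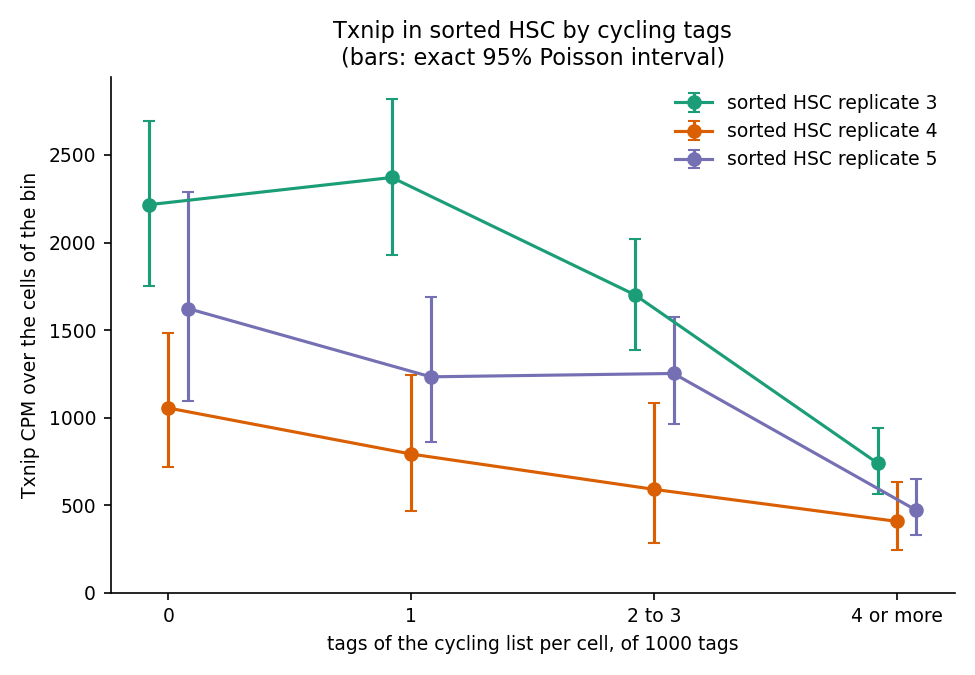
Txnip in CPM over the sorted HSC of a bin (vertical axis, from 0, bars are exact 95% Poisson intervals and cover counting error only) by the number of cycling-list tags among 1000 tags of a cell (horizontal axis), for sorted HSC replicates 3, 4 and 5. The bin of 4 or more tags is the lowest in each library, at 741, 408 and 471 CPM.

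For the other members no difference between HSC with and without cycling tags passed the test. Cdkn1c stood at 33.6 CPM in HSC without and 51.6 CPM in HSC with cycling tags, from 3 and 23 transcripts. Foxo1 stood at 78.5 and 49.4 CPM, from 7 and 22 transcripts, and Cdkn1b at 56.0 and 40.4 CPM, from 5 and 18. In the fit with no filter, 0 of the 8 members were called by edgeR at an adjusted p of 0.05 (of all genes 0.214% were higher and 0.00825% lower), and among them Txnip alone had an unadjusted p under it (0.032). Over the 4 bins of cycling tags, pooled Foxo1 stood at 78.5, 79.2, 86.8 and 9.69 CPM. The last of these rests on 2 transcripts in 71 cells (exact 95% Poisson interval 1.17 to 34.9 CPM) and lies below the interval of the bin of 2 to 3 tags (12 transcripts, 44.7 to 151 CPM). In cells with 4 or more tags replicates 3, 4 and 5 held 0, 1 and 1 Foxo1 transcripts, and this difference, read after its values were seen, was not tested over libraries. Over the same bins Cdkn1b stood at 56.0, 69.3, 36.1 and 29.1 CPM and Cdkn1c at 33.6, 99.0, 36.1 and 38.8 CPM, from 3 to 10 transcripts a bin.

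The pathways around the members were read from fixed lists. Of all genes tested, 28.4% were higher and 24.4% lower in HSC against erythroblast-like cells. Against the neutrophil line the shares were 24.4% and 25.2%, and counts of called list genes are to be read beside these. Among other CDK inhibitors and pocket proteins, all 4 of 8 that passed the filter against erythroblast-like cells were lower in HSC (median log2 fold change -3.20 beside 0.09 over all genes), as were all 3 against the neutrophil line. Cdkn2c, the INK4 inhibitor p18, was lower than in erythroblast-like cells by a log2 fold change of -5.71 ± 0.63 (edgeR adjusted p = 1.3e-09) and than in the neutrophil line by -5.01 ± 0.65 (adjusted p = 1.7e-08). Cdkn2d, the INK4 inhibitor p19, differed by -2.37 ± 0.47 and -1.96 ± 0.43, and Cdkn3, a phosphatase of CDK2, by -3.41 ± 0.56 and -3.07 ± 0.49. Cdkn2c and Cdkn2d were thus lower in HSC while Cdkn1c was higher. In the G1 list, 2 of 6 genes were higher and 3 lower in HSC in each comparison. Ccnd2 (4.97 and 3.80) and Cdk4 (1.56 and 1.89), named after their values were seen, were higher, and Ccnd3 (-1.66 and -1.14) and Cks1b (-1.62 and -1.69), which helps degrade p27, lower.

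Few genes tied to Txnip, FoxO and BTG proteins passed the filter. Txn1, the thioredoxin that Txnip binds, did not pass against erythroblast-like cells (0.18 ± 0.33, edgeR adjusted p = 0.67) and was lower in HSC than in the neutrophil line (-1.03 ± 0.34, adjusted p = 0.011). Mlx, a partner of the glucose-sensing factor that drives Txnip, was lower in HSC than in the neutrophil line (-2.04 ± 0.46, adjusted p = 3.0e-04), and so was the glucose transporter Slc2a3 (-1.02 ± 0.38, adjusted p = 0.025). All 3 tested genes of this list were thus lower there, where 25.2% of all genes tested were lower, and 0 of 1 against erythroblast-like cells changed. Against late erythroblast-like cells alone 1 of 1 was higher in HSC (0.85), where 38.9% of all genes were higher. Against promyelocyte-like, myelocyte-like and mature neutrophil-like cells 2 of 2, 3 of 3 and 1 of 2 were lower, where 22.8%, 35.8% and 38.4% of all genes were. Of other FoxO genes and targets, 1 of 4 was lower against erythroblast-like cells and 1 of 2 against the neutrophil line. Of all genes tested 24.4% and 25.2% were lower there, so these counts do not set the list apart. In both cases the gene was Gadd45a, a growth arrest gene (-3.62 ± 0.55 and -2.79 ± 0.66, edgeR adjusted p = 9.2e-07 and 4.7e-04). Gadd45a is also on the list of p53 targets, where it was the 1 of 2 tested genes that was lower in each comparison. Catalase (Cat) did not pass (-0.03 ± 0.42, adjusted p = 0.95). Btg1, the relative of Btg2, was lower in HSC than in the neutrophil line (-1.56 ± 0.41, adjusted p = 0.0013), and 0 other BTG and TOB genes passed the filter against erythroblast-like cells. By single stage, the few BTG, TOB and FoxO list genes tested were called in both directions. Against early erythroblast-like cells 1 of 1 BTG and TOB gene and 2 of 4 FoxO genes and targets were higher in HSC, and 0 lower (20.2% of all genes higher). Against mature neutrophil-like cells 1 of 1 BTG and TOB gene was lower (38.4% of all genes lower). Against late erythroblast-like and promyelocyte-like cells 1 of 1 of the FoxO list was lower (34% and 22.8% of all genes lower).

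The list of stem cell regulators of quiescence was mostly below the filter. Of 17 on the list, 3 passed the filter against erythroblast-like cells and 2 were higher in HSC, the transcription factors Hlf and Meis1, and 6 passed against the neutrophil line, of which 4 were higher, Hlf and Meis1 among them, and 1 lower (Junb). Junb differed by -1.86 ± 0.66 (edgeR adjusted p = 0.019). Among all genes tested, 28.4% and 24.4% were higher in HSC in these 2 comparisons. Against early erythroblast-like cells 5 of 8 were higher and 0 lower (20.2% of all genes higher). Against late erythroblast-like, promyelocyte-like and myelocyte-like cells 1 of 1, 2 of 2 and 3 of 3 were higher (38.9%, 21.9% and 33.1% of all genes). Against mature neutrophil-like cells 1 passed and was lower (38.4% of all genes lower). Hlf and Meis1 are named after their values were seen.

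Among all genes that passed the filter in every HSC comparison, those most like each member were found by Pearson's correlation of log2(CPM + 50) over 36 sums of a library and stage. For Txnip they were Ifitm1 (r = 0.70), H2-D1 (0.55) and Ifitm3 (0.55) of 202 candidates, and without the sorted libraries these fell to 0.40, 0.48 and 0.29. For Btg2 they were H3f3a (0.73), Ucp2 (0.71) and Lbr (0.68), for Ccng2 Actb (0.60), Lyz1 (0.59) and Zyx (0.59), and for Cdkn1b Psap (0.51) and Ucp2 (0.48). Between the members themselves r ran from -0.08 to 0.35. Sums share libraries and sparse members are noisy, so these values are descriptions.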

How the data were processed

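Single cells of 18 micro-dissected and 5 sorted HSC libraries were measured by CEL-seq. Reads were aligned with BWA 0.6.2-r126 to mm10, per the submitters' processing notes. How reads were counted is not given in the sources used here. A table of 23536 genes and 1915 cells that the authors deposited holds estimated transcript counts (expected counts); 99.9999% of 1426145 values above 0 matched, within 0.01, a whole number of random tags out of 256 corrected for repeated draws. All value columns were assigned to a library (0 were not). Dissected replicate 18 and sorted HSC replicate 2 were not analysed here.

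Dissected cells with at least 1000 transcripts were clustered (scanpy 1.11.5, leidenalg 0.10.2: 2000 variable genes, 30 components, 15 neighbours, resolution 1), leaving out the members and listed genes, and named from marker lists; no doublet caller was run. One erythroblast-like cluster was named by 14 raised markers, none among its 10 leading genes. Sums per library and class were rounded and tested with edgeR 4.0.16 in R 4.3.3 (TMM, filterByExpr, robust fit); the library was a block within lineages and within HSC. The SE is approximate, from the log2 fold change and the F statistic. Members below the filter come from the fit with no filter, an alternative; pooled ratios carry exact 95% intervals and cover counting error only. For a count of 0 the limit is 3 counts, taken over the group. Alternatives were DESeq2 1.42.0, library totals, no filter, 2000 transcripts, another class rule, no muscle cells, all libraries, no block and each library left out. The test was checked on simulated counts. Named genes were the 8 members, from each list the 3 genes of highest mean CPM, and 3 genes most like each member with at least 100 transcripts. A few genes that this rule names are not reported here. Members and lists were chosen with earlier results of these data known. Promoters come from RefSeq (7 of 8 members matched).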

Additional observations from a re-analysis of the deposited data

Results flagged for a closer look

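Among libraries of a stage, values that stood apart from the rest by the gap to the next library over the whole range were looked for in groups of 4 to 10 libraries. Of 35 groups of a member and a class, 9 had such a library. The nominal rate of 1 in 20 is for continuous values and cannot be set beside these sparse counts. Where a single library holds a transcript and the rest are at 0, the gap equals the range and the flag is fixed in advance. All 9 were the highest of their group and all rest on 1 to 5 transcripts. Btg2 stood at 658 CPM in myelocyte-like cells of micro-dissected replicate 8 (4 transcripts in 5 cells, next library 133 CPM). Cdkn1b stood at 420 CPM in late erythroblast-like cells of replicate 4 (4 transcripts, next 151 CPM), and Foxo1 at 92 CPM in those of replicate 12 (1 transcript). Cdkn1c stood at 83.4 CPM in cells of the unnamed cluster in replicate 3 (5 transcripts) and at 13.1 CPM in myelocyte-like cells of replicate 15 (1 transcript), with all other libraries at 0. Cdkn1a stood at 25.7 CPM in late erythroblast-like cells of replicate 15, 41.1 CPM in myelocyte-like cells of replicate 14, 17.4 CPM in monocyte and dendritic-like cells of replicate 10 and 16.7 CPM in the unnamed cluster of replicate 3, from 1 or 2 transcripts each. For Cdkn1a, Cdkn1c and Foxo1 most libraries of these groups are at 0.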

How the results depend on the processing

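Txnip kept its direction and its call against all 7 classes under every alternative that could be run, each library left out included. Btg2 did so against erythroblast-like, late erythroblast-like and neutrophil-line cells where it passed the filter. These comparisons share the same sorted libraries, and the erythroblast-like and neutrophil-line classes contain the stages, so they are not separate tests. With no filter, Txnip against mature neutrophil-like cells (1.82) lay near the median of all genes (1.78). Within HSC, the Txnip difference lost its call with DESeq2 (-0.78), with no filter (-0.39), without the block (-0.74) and with each library left out (-0.85 to -0.58). Counts of genes called moved as follows. With no filter they rose from 1055 to 4702 (erythroblast-like), 1126 to 3643 (neutrophil line), 682 to 5821 (late erythroblast-like), 713 to 2355 (promyelocyte-like), 696 to 4161 (myelocyte-like), 269 to 3175 (mature neutrophil-like), 391 to 751 (later against promyelocyte-like) and 17 to 27 (cycling), and fell from 99 to 7 (late against early). At 2000 transcripts they were 615 (erythroblast-like), 453 (early, of 920) and 447 (promyelocyte-like). With all libraries they were 220 (early), 446 (late) and 379 (promyelocyte-like). DESeq2 gave 606 (early), 16 (late against early) and 0 (cycling, with 24 at an unadjusted p under 0.05, beside 86 by edgeR). Without the block they were 288 (late against early) and 2 (cycling), and with early cells taken by cluster 341 (late against early). With a library left out they were 224 to 913 (early) and 0 to 12 (cycling; 0 without sorted HSC replicate 3, with 60 at an unadjusted p under 0.05). Thinning to 1000 tags lowered the share of sorted HSC with Txnip to 66.5% and with Ccng2 to 3.67%, of erythroblast-like cells with Txnip to 10.3% and with Btg2 to 28.0%, and of neutrophil-line cells with Txnip to 14.9%, Ccng2 to 12.2% and Btg2 to 7.45%. Where no cause is named, the cause was not tested. No paired analysis was possible because the labels give no replicate numbers that pair sorted with dissected libraries; fits within libraries had the library as a block. At 2000 transcripts, mature neutrophil-like, late against early and cycling fits could not be made, nor late against early with a library left out.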
